A study of Mus musculus with 38 samples.

Results

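Glycogen metabolism was followed through 8 of the 25230 genes in a count table from microdissected adBNST, the anterodorsal part of a forebrain nucleus (the bed nucleus of the stria terminalis) known for its place in anxiety and stress circuits. The 8 genes were Ppp1r3e, Ppp1r3c, Ppp1r3d, Pygb, Pygm, Gys1, Gbe1 and Gyg, taken by name, and all 8 were among the 16309 genes with enough counts to test. The list was built around Ppp1r3e, which was selected from the comparison of stressed males with stressed females in these same libraries, so that comparison is given for the 8 genes as a description and carries no test. The study asked how chronic stress alters gene expression in this nucleus in each sex. The mice were labelled WT and fell into 4 groups. There were 9 libraries of males given chronic variable mild stress over 6 weeks, 10 of control males, 9 of females given the same stress and 10 of control females, and no age is stated. Each library came from adBNST microdissections, with poly-A-selected RNA and a stranded kit.

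Glycogen is the brain's small store of glucose and is held mainly in astrocytes. Glycogenin (Gyg) primes a new particle, glycogen synthase (Gys1) lengthens its chains and the branching enzyme (Gbe1) adds branches, while glycogen phosphorylase, as the brain isoform Pygb and the muscle isoform Pygm, takes glucose units off again. The Ppp1r3 genes encode targeting subunits that hold protein phosphatase 1 on glycogen, where it removes phosphate from synthase, which activates it, and from phosphorylase, which turns it down. Ppp1r3c encodes the subunit known as protein targeting to glycogen, and Ppp1r3d and Ppp1r3e encode related subunits.

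Ppp1r3c and Ppp1r3d are shown with their promoters because they moved together from library to library, as described below. Each run spans 250 bases before to 50 bases after the start of the gene in RefSeq's annotation of GRCm38.p6, is written 5′ to 3′ on the gene's own strand, and has the sequence CACGTG (an E-box) in capitals.
Ppp1r3c (chr19:36736555-36736854, minus strand): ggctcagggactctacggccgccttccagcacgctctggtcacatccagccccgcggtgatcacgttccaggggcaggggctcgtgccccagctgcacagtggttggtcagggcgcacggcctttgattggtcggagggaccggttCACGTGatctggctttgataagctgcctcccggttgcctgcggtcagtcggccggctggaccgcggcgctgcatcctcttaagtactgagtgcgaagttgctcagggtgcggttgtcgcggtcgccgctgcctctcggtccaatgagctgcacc
Ppp1r3d (chr2:178414414-178414713, minus strand): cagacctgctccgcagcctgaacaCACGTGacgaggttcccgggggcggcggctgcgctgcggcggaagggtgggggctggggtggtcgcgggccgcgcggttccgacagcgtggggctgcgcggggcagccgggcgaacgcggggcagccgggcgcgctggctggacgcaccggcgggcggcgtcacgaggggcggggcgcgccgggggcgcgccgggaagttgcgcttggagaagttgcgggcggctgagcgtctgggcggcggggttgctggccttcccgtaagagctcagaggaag
CACGTG reads the same on both strands. It began 104 bases before the start of Ppp1r3c and 226 bases before that of Ppp1r3d, and Gyg held it 8 bases after its start. Thus 3 of the 7 member promoters in the table, which has none for Ppp1r3e, held it, against 7.15% of 32851 promoters of the same length. These shares were not matched for base composition. Bases G and C made up 65.3% of the Ppp1r3c promoter, 77% of that of Ppp1r3d and 62% of that of Gyg, against a median of 52.7%. C followed by G occurred 26, 45 and 22 times, against a median of 7. CCAAT, searched on both strands, was in 2 of the 7, Ppp1r3c and Gys1, against 37.4% of all promoters. TGACGT and AGGTCA, searched on both strands, were in 0 of the 7, against 7.51% and 16.3%. In Ppp1r3c, CCAAT began 35 bases after the start and, on the other strand, 124 bases before it, and neither match overlapped CACGTG. A match is a stretch of letters and was not tested as a binding site. The Ppp1r3e gene itself lies on the minus strand of chromosome 14 at 54872669 to 54877550 in GENCODE M21 (mm10), overlaps no other annotated gene, and is 1707 bases from Homez and 5826 bases from Bcl2l2.

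Total counts were 9.06 to 84.8 M per library, and Ppp1r3e was read from 62 to 726 counts. Levels are CPM, the count divided by the library size in M, with sizes scaled by the trimmed mean of M-values, and changes are log2 fold changes ± SE from edgeR's quasi-likelihood test with p adjusted by Benjamini-Hochberg over all 16309 genes. The labels do not state that each library came from a separate animal, so these p-values measure the spread between libraries. Along the first principal component, which held 29.6% of the variance, 5 libraries stood apart from the other 33. They were stressed females 1 and 2, control females 1 and 6 and control male 3. The myelin gene Mbp had 9034 to 13349 CPM in these 5, against 1830 to 6429 CPM in the others. The ribosomal RNA gene Rn45s held 1.09 to 4.81% of counts in these 5 and 0.121 to 2.79% in the other 33. Among libraries numbered 1 to 5, it held 1.09 to 2.17% in those that stood apart. It held 0.121 to 0.311% in the others of these numbers, except stressed male 5 at 1.28%. Choroid plexus markers summed to 34.5 to 3239 CPM in stressed males, with the top value in library 5, against at most 69.8 CPM in any other group. The neuronal list summed to 5762 to 9279 CPM and the astrocyte list to 3951 to 7581 CPM, with no marker at 0 throughout either list. In such tissue RNA, fewer cells of a type and less RNA per cell cannot be told apart.

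Scaled to the mean length of its coding transcripts, Pygb was the most abundant of the 8, at 57.1 ± 9.91 CPM per kb (SD, n = 38). Ppp1r3c followed at 22.1 ± 8.00, Gyg at 15.7 ± 1.79, Gys1 at 8.36 ± 1.5, Pygm at 8.28 ± 1.84, Ppp1r3e at 3.75 ± 0.748, Ppp1r3d at 3.34 ± 0.762 and Gbe1 at 2.79 ± 0.678 CPM per kb. Within libraries, Pygb was above Ppp1r3c, Gyg above Gys1 and Pygm above Ppp1r3e in 38 of 38. Neighbours that traded places were Gys1 and Pygm, with Gys1 higher in 20 of 38 libraries, Ppp1r3e and Ppp1r3d, with Ppp1r3e higher in 24, Ppp1r3d and Gbe1, with Ppp1r3d higher in 26, and Ppp1r3c and Gyg, with Ppp1r3c higher in 35. The order depends in part on the length used. Over the union of all exons, a length added after the data were seen, Gys1 had 4.23 CPM per kb and fell behind Pygm at 7.02, Ppp1r3e had 2.85 and fell behind Ppp1r3d at 3.34, and Gbe1 had 1.55. With the longest transcript Gys1 had 5.51 and Pygm 7.86 CPM per kb.

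The brain phosphorylase and the widely expressed synthase made up most of the transcript of their enzymes. Pygb made up 82.4% ± 1.95 of phosphorylase transcript per kb, Pygm 12.1% ± 2.38 and the liver isoform Pygl 5.51% ± 0.95 (SD, n = 38). The liver synthase Gys2 made up 0.561% ± 0.679 of synthase transcript, and Gys1 the rest. Skeletal muscle markers summed to 4.20 to 17.98 CPM over 7 genes, while Pygm had 14.6 to 33.9 CPM. Among the 7 targeting subunits, Ppp1r3c held 51.7% ± 6.96, Ppp1r3f 27.6% ± 6.25, Ppp1r3e 9.37% ± 2.72, Ppp1r3d 8.03% ± 1.14 and Ppp1r3g 2.79% ± 1.23. With the union of exons these shares were 60.5% for Ppp1r3c, 18.3% for Ppp1r3f, 8.41% for Ppp1r3e and 9.42% for Ppp1r3d, and Pygl held 2.93% of phosphorylase transcript. On the mean coding length, the liver-type Ppp1r3b held 0.452% ± 0.322 and the striated-muscle Ppp1r3a 0.108% ± 0.0931.

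**Figure D1:**
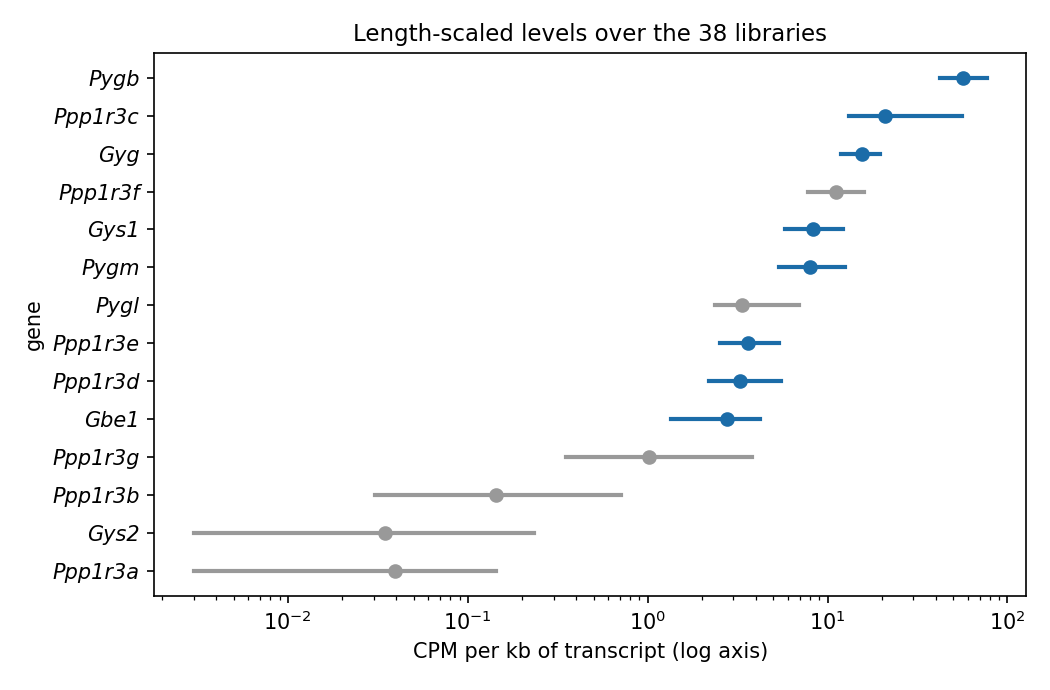
Level of each gene in CPM per kb of mean coding transcript length on a log axis; points are medians and lines run from the lowest to the highest of 38 libraries, blue for the 8 genes and grey for their paralogues. Pygb is at the top, Ppp1r3e and Ppp1r3d lie side by side, and the lines of Ppp1r3a and Gys2, whose lowest libraries are at 0, are cut at the left.

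The level of Ppp1r3e was lowest in females and highest in stressed males. Stressed males ran from 7.77 to 10.2 CPM with a median of 8.67, and control males from 5.29 to 8.43 with a median of 7.31. Stressed females ran from 4.94 to 7.11 CPM with a median of 6.15, and control females from 4.83 to 7.81 with a median of 6.03. The 9 stressed males all lay above the 9 stressed females, the comparison the gene was selected from. Stressed and control males overlapped, as did stressed and control females and the controls of both sexes. Means were 9.06 ± 0.962 CPM in stressed males, 7.19 ± 0.893 in control males, 6.22 ± 0.649 in stressed females and 6.22 ± 0.927 in control females (SD).

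In stressed mice, Ppp1r3e was 0.54 ± 0.10 higher on the log2 scale in males than in females. In this comparison 0.0858% of all genes tested passed at an adjusted p under 0.05 and 0.0491% had every stressed male above every stressed female, and nothing is read from it. The difference was 0.53 without male stressed library 5, which carried the choroid plexus transcripts, and 0.50 without the 5 libraries that stood apart. It was 0.54 among libraries numbered 1 to 5 and 0.55 among those numbered 6 and above. These values describe the same selected comparison and give it no support. Of the adjoining genes, Homez differed by 0.16 ± 0.12 and Bcl2l2 by -0.09 ± 0.08 in the same comparison.

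In males, stress was accompanied by a Ppp1r3e level 0.33 ± 0.10 higher on the log2 scale, which did not pass (edgeR adjusted p = 0.863), and 6 of 9 stressed males lay above all 10 control males. No gene passed in this comparison (0% of 16309 genes by edgeR, and 0 by DESeq2 and by limma voom, with 655 at an unadjusted p under 0.05), and Ppp1r3e had the tenth smallest p. This comparison shares its 9 stressed males with the one the gene was selected from. The rank of p and the 6 of 9 therefore give no support to a stress effect. How many of all genes separated in this way was not counted. In females the change was 0.0033 ± 0.096 (adjusted p = 1), with an interval of 12.4% lower to 14.7% higher, and here too 0% passed, with 308 at an unadjusted p under 0.05. The difference of the stress effects, males minus females, was 0.33 ± 0.14 (adjusted p = 0.845; 0% passed, 736 unadjusted), and the stress effect averaged over the sexes was 0.17 ± 0.07 (adjusted p = 1; 0% passed, 239 unadjusted). The difference of the stress effects contains the selected comparison, from which it takes away the male minus female difference in controls. The change in females and the averaged effect also use libraries of that comparison. For Ppp1r3e, the p-values of these comparisons are therefore not independent of the selection. Homez changed by -0.03 ± 0.12 with stress in males and Bcl2l2 by -0.03 ± 0.08.

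In control mice, Ppp1r3e was 0.21 ± 0.09 higher on the log2 scale in males than in females (adjusted p = 1). Of all genes, 0.0674% passed in this comparison, and of the 8 members 0 passed. Ppp1r3e's part of the targeting-subunit transcript was 12.6% ± 1.78 in stressed males, 9.41% ± 1.74 in control males, 7.48% ± 2.12 in stressed females and 8.11% ± 2.18 in control females (SD). These shares rest on the values the gene was selected from and are no separate result. In the same order of groups, the part of Ppp1r3c was 46.9%, 50.5%, 55.5% and 53.8%.

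**Figure D2:**
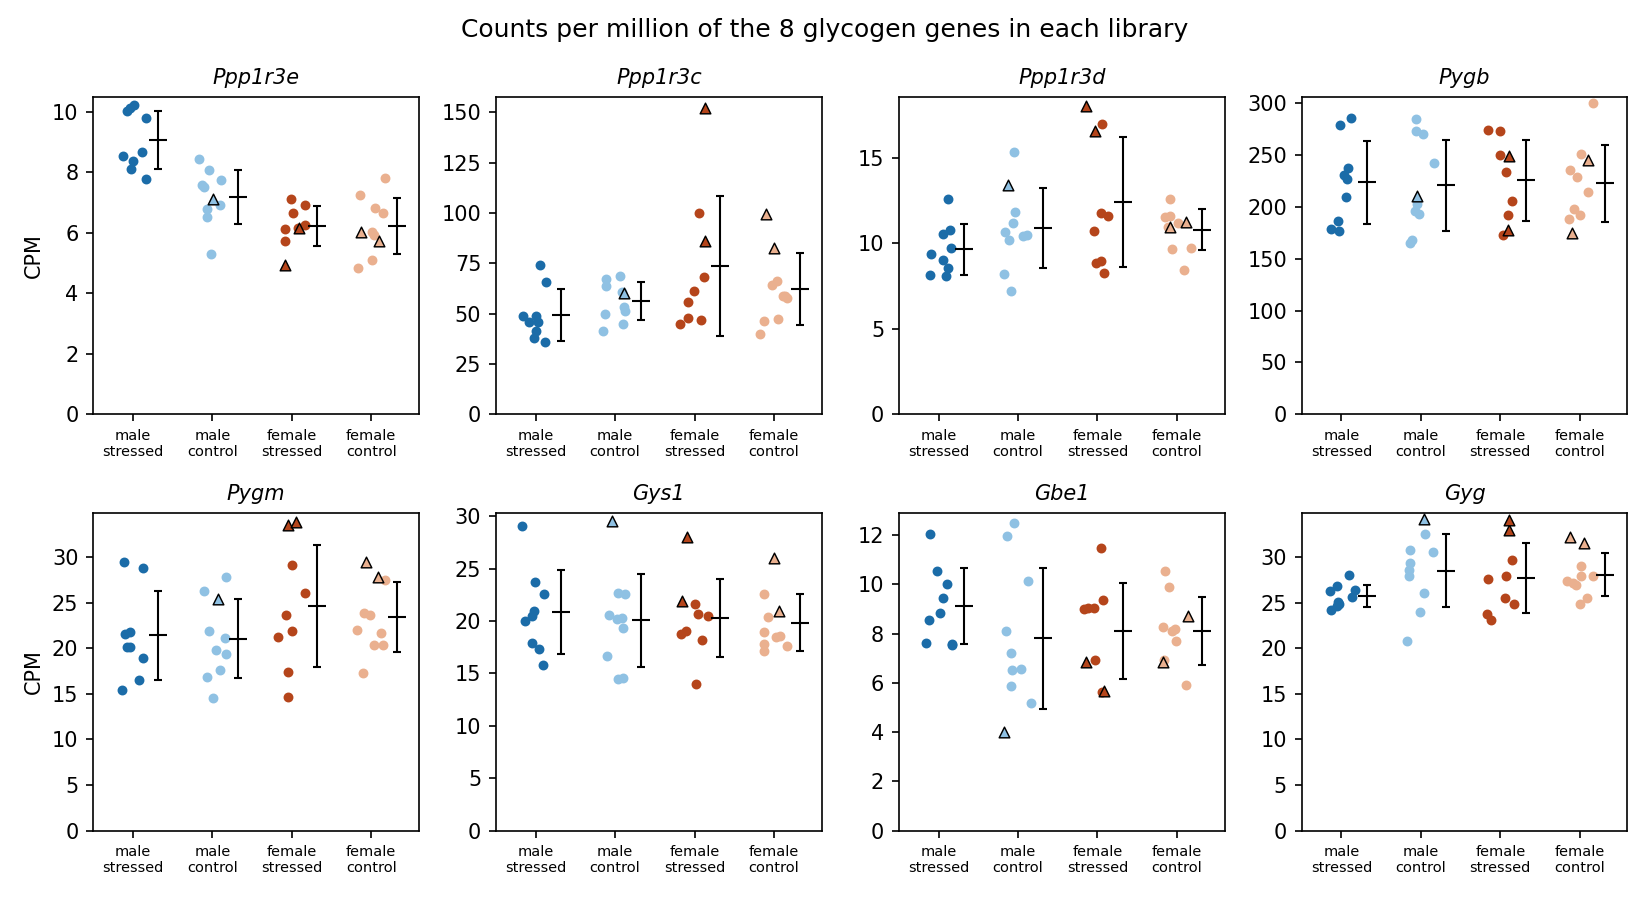
CPM of each of the 8 genes by group, 1 point per library, with mean and SD beside each group; triangles mark the 5 libraries that stood apart. Ppp1r3e shows stressed males from 7.77 to 10.2 CPM above stressed females from 4.94 to 7.11, and the highest Ppp1r3c and Ppp1r3d values are triangles among stressed females.

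Ppp1r3c, the most abundant targeting subunit, had a wide spread. Stressed males ran from 35.8 to 74.2 CPM with a median of 45.7, control males from 41.3 to 68.9 with a median of 56.8, stressed females from 45.0 to 152 with a median of 61.3 and control females from 40.04 to 99.6 with a median of 58.7. All groups overlapped, and the library at 152 CPM was stressed female 2, which is among those that stood apart. With stress, the log2 change was -0.19 ± 0.19 in males (edgeR adjusted p = 0.867) and 0.24 ± 0.18 in females (adjusted p = 1), and their difference was -0.43 ± 0.26 (adjusted p = 0.845). Between stressed males and stressed females Ppp1r3c differed by -0.58 ± 0.19, and by -0.29 ± 0.16 without the 5 libraries.

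Ppp1r3d followed Ppp1r3c at a lower level. It ran from 8.07 to 12.6 CPM with a median of 9.35 in stressed males, from 7.18 to 15.3 with a median of 10.6 in control males, from 8.25 to 18.04 with a median of 11.6 in stressed females and from 8.46 to 12.6 with a median of 11.1 in control females. These ranges overlapped throughout. With stress it changed by -0.17 ± 0.14 in males (edgeR adjusted p = 0.863) and by 0.20 ± 0.14 in females (adjusted p = 1). The difference of these changes was -0.37 ± 0.19 (adjusted p = 0.845). Stressed males and stressed females differed by -0.36 ± 0.14, and by -0.19 ± 0.14 without the 5 libraries.

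**Figure D3:**
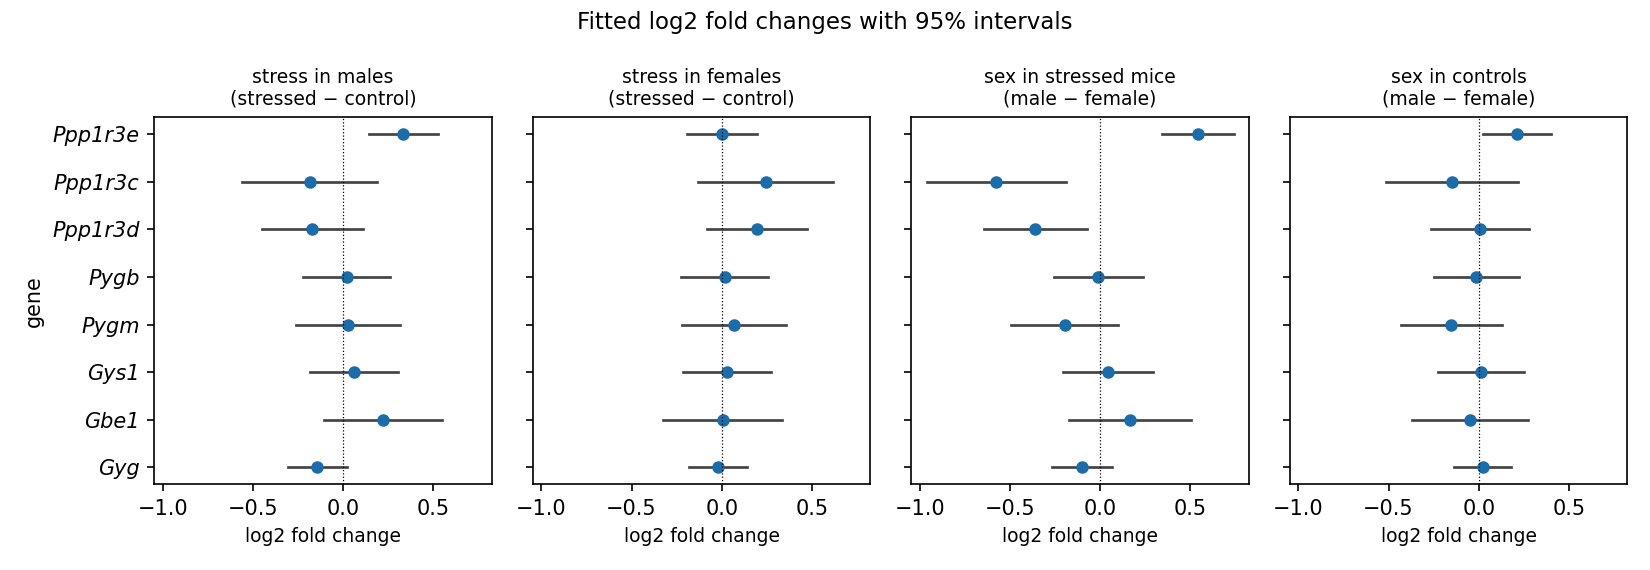
Log2 fold change of each gene with its 95% interval in 4 comparisons, stressed minus control or male minus female. Ppp1r3e lies at 0.33 for stress in males and 0.0033 for stress in females. Ppp1r3c and Ppp1r3d lie on opposite sides of 0 in males and females. The panel for sex in stressed mice also draws intervals, but Ppp1r3e was selected there. Whether an interval in that panel clears 0 is therefore not to be read as a test.

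For the enzymes that build glycogen no stress change passed, which does not show that the groups were equal. Gys1 averaged 20.9 ± 3.97 CPM in stressed males, 20.1 ± 4.43 in control males, 20.3 ± 3.75 in stressed females and 19.8 ± 2.73 in control females (SD). Its stress change was 0.06 ± 0.12 in males (edgeR adjusted p = 0.927) and 0.03 ± 0.12 in females (adjusted p = 1), with 95% intervals of 11.9% lower to 23.4% higher in males and 13.7% lower to 20.8% higher in females. Gys1 shares 310 exonic bases with Ruvbl2 on the opposite strand, 6.47% of its exons, and how strand was counted is not given in the sources used here. The branching enzyme Gbe1 averaged 9.14 ± 1.55 CPM in stressed males, 7.81 ± 2.86 in control males, 8.11 ± 1.95 in stressed females and 8.11 ± 1.39 in control females. Control males held both its lowest and highest libraries, at 4.01 and 12.5 CPM, and the stress change was 0.22 ± 0.16 in males (adjusted p = 0.863) and 0.01 ± 0.16 in females (adjusted p = 1). Glycogenin was even in stressed males, at 25.8 ± 1.21 CPM, against 28.5 ± 4.01 in control males, and had 27.7 ± 3.89 in stressed females against 28.1 ± 2.35 in control females. None of the 9 stressed males was above the median of control males for Gyg, yet the ranges overlapped and the change of -0.14 ± 0.08 did not pass (adjusted p = 0.863). For Gbe1, as for Ppp1r3e, all 9 were above that median. How many of all genes split in this way was not counted.

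For the phosphorylases, too, no stress change passed. Pygb averaged 223.7 ± 40.3 CPM in stressed males, 220.7 ± 44.0 in control males, 225.5 ± 39.4 in stressed females and 222.8 ± 37.4 in control females (SD), with stress changes of 0.02 ± 0.12 in males (edgeR adjusted p = 0.980) and 0.02 ± 0.12 in females (adjusted p = 1). Its spread followed the library numbers instead. Libraries numbered 6 and above had 255.2 ± 26.4 CPM (n = 18) and those numbered 1 to 5 had 194.2 ± 21.1 CPM (n = 20), in each of the 4 groups in the same order. What the numbers stand for is not stated in the labels, and this split was not tested. The sets differed in other ways too. Rn45s held 0.121 to 2.17% of counts in libraries numbered 1 to 5 and 0.754 to 4.81% in those numbered 6 and above. Total counts were 9.06 to 84.8 M and 22.6 to 40.6 M in the same order. The part of these differences in the Pygb values was not tested. The fit used here had no term for the number set, so the SEs of Pygb include this split. Pygm averaged 21.4 ± 4.87 CPM in stressed males, 21.1 ± 4.33 in control males, 24.6 ± 6.70 in stressed females and 23.4 ± 3.87 in control females, and its stress changes were 0.03 ± 0.14 in males (adjusted p = 0.974) and 0.07 ± 0.14 in females (adjusted p = 1). In control mice Pygm differed by -0.15 ± 0.14 between males and females (adjusted p = 1).

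Over the 33 libraries that did not stand apart, the genes were compared as deviations from the mean of their group and number set, for 28 pairs, a comparison chosen after the data were seen. Ppp1r3c and Ppp1r3d were the closest pair, with a Pearson r of 0.83 (two-sided permutation p adjusted over 28 pairs, 0.000560) and a Spearman rho of 0.80 (adjusted permutation p = 0.000280). Without the 2 libraries farthest from the median of Ppp1r3d, r was 0.82. It was 0.72 over 16 libraries numbered 1 to 5 (adjusted permutation p = 0.0437), 0.90 over 17 numbered 6 and above (adjusted permutation p = 0.0305) and 0.81 over all 38. Over those numbered 1 to 5, rho was 0.69 and did not pass (adjusted permutation p = 0.0841). There r was 0.56 without the 2 farthest libraries. Over those numbered 6 and above, rho was 0.88 (adjusted permutation p = 0.00812). Pygm and Gys1 were the only other pair to pass over the 33 libraries, with an r of 0.69 (adjusted permutation p = 0.00546) and a rho of 0.64 (adjusted permutation p = 0.0108). That r was 0.55 without the 2 farthest libraries and 0.54 without male stressed library 5. It was 0.77 over all 38 libraries (adjusted permutation p = 0.000140), 0.79 over those numbered 1 to 5 (adjusted permutation p = 0.0437) and 0.52 over those numbered 6 and above, where it did not pass (adjusted permutation p = 0.389). The rho of this pair over those numbered 1 to 5 was 0.74 and did not pass (adjusted permutation p = 0.0816). Further pairs passed by r or rho in other selections of libraries and not over the 33. Ppp1r3d and Pygm had an r of -0.80 and a rho of -0.85 over libraries numbered 1 to 5 (adjusted permutation p = 0.0185 and 0.0120), against an r of -0.0085 over those numbered 6 and above. Pygb and Gyg passed over those numbered 6 and above by rho alone, at 0.73 (adjusted permutation p = 0.0182), with an r of 0.55 (adjusted permutation p = 0.389). Over all 38 libraries Gyg passed by r with Ppp1r3c at 0.50, Ppp1r3d at 0.51, Pygm at 0.53 and Gys1 at 0.40 (adjusted permutation p = 0.0277, 0.0470, 0.0258 and 0.0478), and by rho with none of them. No pair that included Ppp1r3e passed over the 33 libraries. Its highest r was 0.31 with Pygm, with a rho of 0.32 (adjusted permutation p = 0.342 and 0.345), followed by 0.24 with Gbe1, with a rho of 0.30 (adjusted permutation p = 0.404 and 0.345). With Ppp1r3c its r was 0.01 and its rho 0.0094, and with Ppp1r3d they were -0.16 and -0.24 (adjusted permutation p = 0.951 and 0.683 for r). All pairs share the libraries' depth and cell composition.

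**Figure D4:**
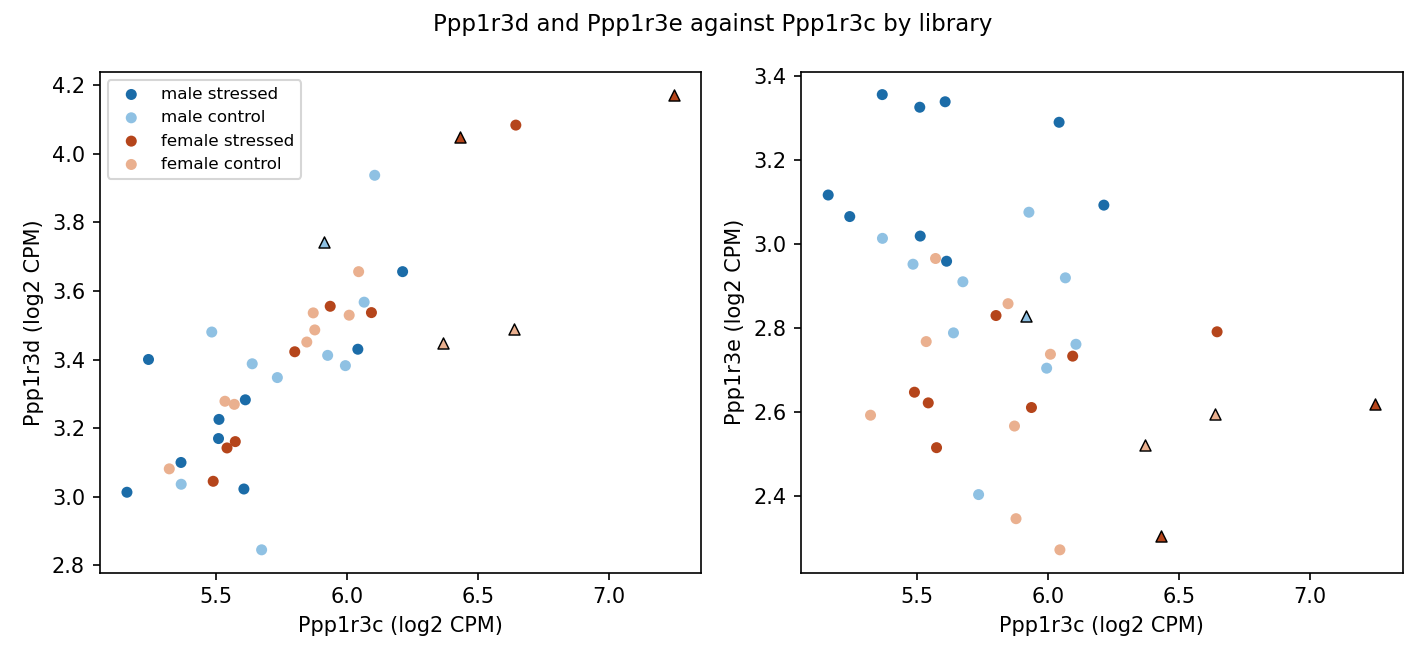
Log2 CPM of Ppp1r3d (left) and Ppp1r3e (right) against Ppp1r3c, 1 point per library, coloured by group, with triangles for the 5 libraries that stood apart. Ppp1r3d climbs with Ppp1r3c over the libraries, while Ppp1r3e does not, and stressed males lie high in the right panel.

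The named genes whose pattern was most like that of Ppp1r3e over the same 33 libraries were Cysltr2, a leukotriene receptor, with an r of 0.64 (rho 0.56), Arhgap31, with 0.63 (rho 0.68), and Ttn, which encodes the sarcomere protein titin, with 0.62 (rho 0.48). For Ppp1r3c they were Sat1, a polyamine acetyltransferase, with 0.84 (rho 0.86), Ppp1r3d itself with 0.83, and the nuclear receptor Nr4a3 with 0.81 (rho 0.85). These were the highest of the tested genes after unnamed gene models (Gm numbers and Rik names) were left out, and are descriptions only.

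Against 10 lists of cell-type markers, none of 80 correlations passed over the 33 libraries. Ppp1r3e had its highest r with oligodendrocyte precursor markers, 0.49 with a rho of 0.49 (permutation p = 0.00563 and 0.00978, adjusted 0.225 and 0.160). It was 0.53 without the 2 farthest libraries, 0.80 over libraries numbered 1 to 5 (adjusted permutation p = 0.0320) and 0.10 over those numbered 6 and above. The 6 precursor markers summed to 329 to 435 CPM in stressed males, 311 to 495 in control males, 304 to 396 in stressed females and 274 to 537 in control females, and their part in the Ppp1r3e values was not tested. With astrocyte markers Ppp1r3e had an r of 0.40 and a rho of 0.27 (adjusted permutation p = 0.444 and 0.616). Ppp1r3c had its highest r with oligodendrocyte markers, 0.46 with a rho of 0.54 (adjusted permutation p = 0.227 and 0.125), and 0.56 over all 38 libraries, where it passed (adjusted permutation p = 0.0156). Over all 38 libraries Gbe1 also passed, with endothelial markers at an r of 0.67 (adjusted permutation p = 0.0437) and with skeletal muscle markers at -0.55 (adjusted permutation p = 0.0156). Over the 33 libraries Gbe1 had an r of 0.49 with endothelial markers, which was 0.28 without the 2 farthest libraries, and -0.46 with skeletal muscle markers. The r of Gys1 with choroid plexus markers was 0.59 with a rho of 0.28 (adjusted permutation p = 0.444 and 0.552), and 0.06 without male stressed library 5.

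**Figure D5:**
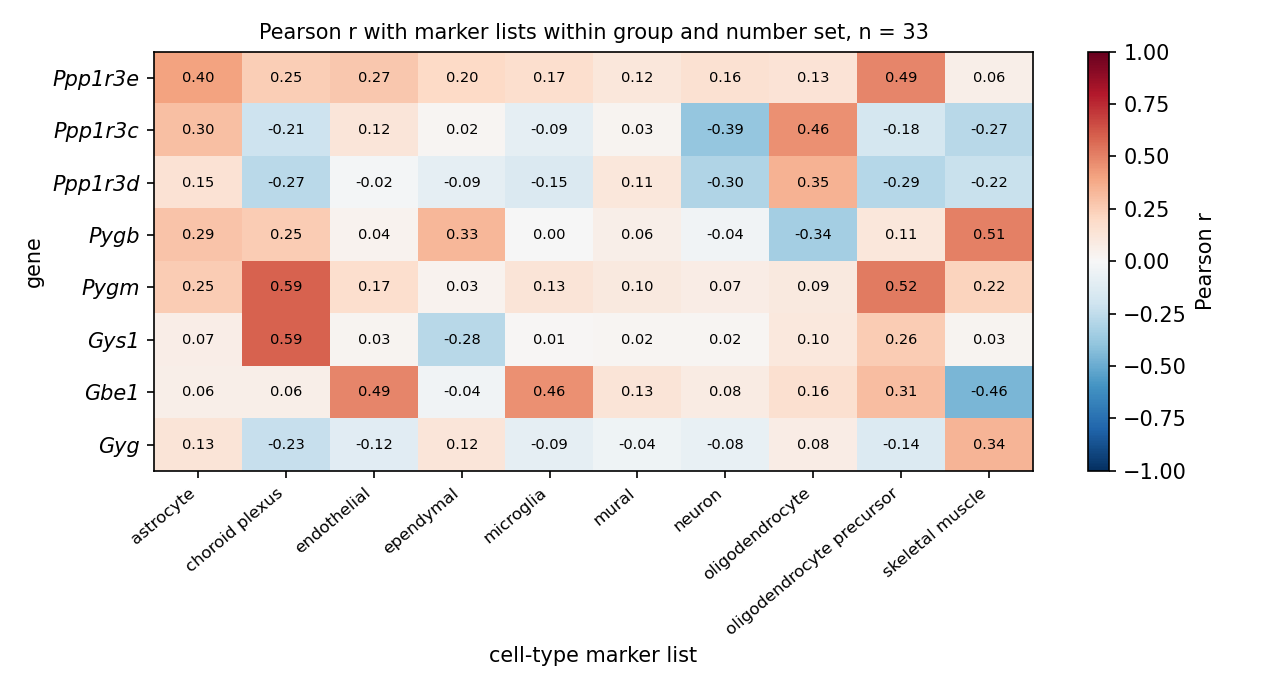
Pearson r of each gene with the mean of each marker list, as deviations from group and number-set means over 33 libraries. The highest value for Ppp1r3e is 0.49 with oligodendrocyte precursor markers, and no cell of the map passed after adjustment over 80 relations.

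Beyond the 8 members, 27 listed glycogen genes were in the table and 26 were tested. With stress 0 of them passed in either direction, as did 0% of all genes tested, so the count says nothing particular about the pathway. They had a median log2 change of 0.02 in males and 0.01 in females, against -0.02 and 0.01 over all genes tested. The smallest p with stress in males belonged to Pgm5, a relative of phosphoglucomutase, at 0.58 ± 0.25 (edgeR adjusted p = 0.863). In females they belonged to Ppp1r3b, at -0.72 ± 0.37, and to Pgm2, at 0.12 ± 0.08 (adjusted p = 1 for both). Of 19 genes of glucose and lactate handling 0 passed with stress, and the smallest p were those of the lactate dehydrogenase subunit Ldhb in males, at -0.26 ± 0.12 (adjusted p = 0.863), and of the glucose transporter Slc2a1 in females, at -0.18 ± 0.13 (adjusted p = 1). Of 16 genes for hormone and transmitter inputs 0 passed with stress, and the growth factor receptor Igf1r had the smallest p in both sexes, at 0.21 ± 0.10 in males (adjusted p = 0.863) and -0.14 ± 0.10 in females (adjusted p = 1). In control mice, where 0 genes of these lists and 0.0674% of all genes passed, Slc2a1 had the smallest p of these lists, with 87.5 ± 17.0 CPM in males and 113.4 ± 29.2 CPM in females (SD) and a log2 difference of -0.37 ± 0.12 (adjusted p = 0.747). All 9 endothelial markers were lower in males in this comparison, as were 8068 of 16309 genes tested. Their median log2 difference was -0.21, with 0 passing. These markers summed to 167 to 320 CPM in control males and 215 to 346 CPM in control females. With stress in females, all 9 were lower too, as were 7564 of all genes, with a marker median of -0.19 and 0 passing. They summed to 170 to 288 CPM in stressed females. Other comparisons went the other way. With stress in males 7 of the 9 were higher, as were 7344 of all genes, with a marker median of 0.19 and 0 passing. Among stressed mice 6 of the 9 were higher in males, with a marker median of 0.11. The difference of the stress effects was above 0 for all 9, with a marker median of 0.43. The part of these markers in the Slc2a1 values was not tested.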

How the data were processed

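The deposited table held raw counts per gene symbol, 1 column for each of 38 libraries, as judged from whole numbers with differing totals. Per the submitters' processing notes, the authors used STAR, featureCounts and DESeq2 with mm10, and no versions, annotation or strand setting are given in the sources used here. All columns were matched by name, leaving 0 of other samples. Counts were fitted with edgeR 4.0.16 (filterByExpr by group, TMM, quasi-likelihood test, a mean per group), which kept 16309 genes and removed 8921, and the Benjamini-Hochberg adjustment ran over all of them, with a threshold of 0.05. The procedure was checked on simulated counts. The planted changes were larger than any that the main fit gave for the 8 genes. The check therefore does not show how often changes as small as theirs would be missed. DESeq2 1.42.0 and limma 3.58.1 (voom with quality weights) served as alternatives. Correlations used log2 CPM with a prior count of 2 and 100000 permutations within group and number set. Marker lists needed at least 3 tested genes. Transcript lengths came from GENCODE M21 and promoters from RefSeq (GRCm38.p6), which held 7 of the 8 members. The members and gene lists were chosen with earlier results of these data known. The naming rule took all 8 members, their paralogues, list genes that passed with stress or otherwise those with the smallest p. It also took the 3 genes most like Ppp1r3e and Ppp1r3c, leaving out unnamed gene models. A list gene that this rule names is not reported here. Within groups, even the nearest libraries differed by a chi-square per gene of 7.82 to 18.7, so none was treated as a copy. Counting error is smallest in the deepest library, at 84.8 M, and largest in the shallowest, at 9.06 M.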

Additional observations from a re-analysis of the deposited data

How the results depend on the processing

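No member passed in a stress comparison or in the comparison of control mice in any of the 9 other fits or of the 38 refits that left out 1 library. The number of genes past the threshold stayed at 0 in all 4 stress comparisons. For sex in controls the 11 genes became 21 with DESeq2, 30 with limma voom and 7 in libraries numbered 1 to 5, and for sex in stressed mice the 14 became 24 with DESeq2, 8 in libraries numbered 1 to 5 and 6 in those numbered 6 and above. Leaving out 1 library gave 9 to 15 genes in each, with 9 in stressed mice without stressed female 3.

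Members with changes near 0 switched sign. With stress in females, Ppp1r3e was -0.00018 with DESeq2 size factors, -0.033 with voom and -0.10 in libraries 1 to 5; Pygm was -0.016 with voom and -0.0077 without the 5 libraries that stood apart; Gys1 was -0.093 in libraries 6 and above and -0.0011 without the 5; Gbe1 was -0.024 with voom and -0.15 in libraries 1 to 5; and Gyg was 0.11 in libraries 1 to 5. With sex in controls, Ppp1r3c was 0.019 with voom and 0.014 without the 5. Ppp1r3d was -0.045 with voom, -0.0047 with a term for the number set, -0.21 in libraries 6 and above and -0.022 without the 5. Pygb was 0.0075 with voom and 0.0043 in libraries 6 and above, Gys1 was -0.016 and Gyg -0.11 in libraries 6 and above, and Gbe1 was 0.050 in libraries 1 to 5 and 0.0014 without the 5. The cause was not tested. Leaving out 1 library, the log2 change with stress in females ran from -0.037 to 0.043 for Ppp1r3e, -0.019 to 0.068 for Pygb, -0.00011 to 0.14 for Pygm, -0.036 to 0.087 for Gys1, -0.069 to 0.062 for Gbe1 and -0.062 to 0.015 for Gyg. With stress in males it ran from -0.032 to 0.069 for Pygb, -0.039 to 0.085 for Pygm and -0.00084 to 0.14 for Gys1. With sex in controls it ran from -0.060 to 0.061 for Ppp1r3d, -0.060 to 0.038 for Pygb, -0.060 to 0.059 for Gys1, -0.15 to 0.020 for Gbe1 and -0.0091 to 0.063 for Gyg.

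Numbers were taken as pairing only if every same-numbered pair correlated over 0.1. Of 55 pairs 40 did, with a median of 0.23 and a range of -0.36 to 0.67, and 21 of 110 look-ups found a library's own number as its best match, so the numbers were not used as pairs, although they may carry some shared variation. With the number as a replicate block, 13 genes passed for sex in controls and 14 in stressed mice, Gbe1 was -0.043 with stress in females, Pygm -0.0033 with stress in males and Ppp1r3d -0.013 with sex in controls, and no member's call changed.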
